A study of Mus musculus with 25 samples.

Results

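The genes followed here build the elastic fibre, and 9 were listed: Eln, Lox, Loxl1, Mfap2, Mfap5, Fbn1, Fbln1, Fbln2 and Fbln5. A probe set, the group of short oligonucleotides that reports 1 transcript on an Affymetrix array, was taken as a member when its only annotated symbol was one of these genes. This gave 13 probe sets for 7 genes, of 12422 on the array without controls; Fbn1 and Fbln5 had none and were dropped. The filter on low signal, which asked for the median of the array or more on at least 2 arrays, passed 12 of the 13 and 7440 of all. The probe set left out, Fbln1 161628_r_at, lay at 10.3 to 48.1 signal units, under the floor of 80.4 on all 24 arrays. The others were 2 for Eln, 2 for Lox, 2 for Mfap5, 3 for Fbln1 and 1 each for Loxl1, Mfap2 and Fbln2.

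RNA was taken from whole lungs of C57BL/6 mice, an inbred laboratory strain, and hybridized to 24 MG-U74Av2 arrays in 11 groups. Calorie restriction (CR) is a cut of the diet by 2/3; CR lungs were taken 2, 4, 12, 24, 48, 72 and 96 h after its onset, with 2 arrays per time, called 1a and 1b. Fed lungs were taken at 0 h (4 arrays, 1a, 1b, 2a and 2b) and at 2, 4 and 12 h (2 arrays each). The labels of the fed arrays say that the mice were always fed but also carry the 2/3 of the restricted groups, so their feeding rests on the words for fed. The labels give no age, and they do not say whether the letters a and b are different mice or repeat arrays of 1 RNA, so the spread behind each p-value may be technical only. Values are linear signal scaled to 1 common array median; a level is a mean ± SD over arrays, and a fold is a ratio of geometric means with its 95% confidence interval. Probe sets differ in how strongly they bind, so no level of 1 gene is set against that of another. In bulk tissue, fewer cells of a type and less RNA per cell cannot be told apart.

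Elastic fibres let the lung recoil after each breath, and in the alveolar wall they form the rim of each opening and the tips of the septa. Tropoelastin, the product of Eln, is laid on a scaffold of microfibrils made of fibrillin (Fbn1) and of microfibril-associated glycoproteins (Mfap2 and Mfap5). Fibulins link elastin to this scaffold, and lysyl oxidases (Lox and Loxl1) cross-link elastin into an insoluble polymer. In the lung these genes are mainly used by fibroblasts, myofibroblasts, smooth muscle and mesothelial cells. Elastin protein lasts very long once it is laid down, so an mRNA level says little about how much fibre is present.

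The promoter sequences below are shown for a member that passed in late CR against fed 0 h (Mfap2) and 2 that did not pass the test (Fbln1 and Fbln2), so that the stretch in front of each can be compared. Each is the 250 bases upstream of the most upstream annotated start, 5' to 3', from RefSeq on GRCm38.p6, and capitals mark matches on either strand to TGTTCT, the core read by the glucocorticoid receptor.
Mfap2 (chr4:141010174-141010423, + strand): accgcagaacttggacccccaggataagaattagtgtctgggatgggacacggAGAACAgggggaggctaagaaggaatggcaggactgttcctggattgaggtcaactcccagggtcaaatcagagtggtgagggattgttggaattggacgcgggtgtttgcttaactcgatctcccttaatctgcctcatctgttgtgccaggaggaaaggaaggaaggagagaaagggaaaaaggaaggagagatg
Fbln1 (chr15:85205699-85205948, + strand): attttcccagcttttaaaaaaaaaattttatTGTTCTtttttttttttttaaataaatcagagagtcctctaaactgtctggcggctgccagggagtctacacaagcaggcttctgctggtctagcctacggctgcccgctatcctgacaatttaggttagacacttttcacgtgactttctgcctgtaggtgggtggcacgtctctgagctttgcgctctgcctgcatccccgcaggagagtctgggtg
Fbln2 (chr6:91212514-91212763, + strand): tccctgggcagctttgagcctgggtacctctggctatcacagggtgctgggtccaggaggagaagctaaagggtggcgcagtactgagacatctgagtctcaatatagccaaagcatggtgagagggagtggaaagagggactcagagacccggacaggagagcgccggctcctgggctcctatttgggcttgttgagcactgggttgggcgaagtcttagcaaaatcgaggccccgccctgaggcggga
Mfap2 and Fbln1 each hold 1 match to that core, 197 and 219 bases before the start, and Fbln2 holds none; 16.1% of 32851 mouse promoter windows of this length hold at least 1. GGGCGG, the GC box, was found in Fbln2 once, 16 bases before the start, and in 32.7% of all windows. For the second annotated start of Mfap2, further downstream, the window holds 2 GC boxes and no match to TGTTCT or CAGAC. Fbln1 also has a second start downstream, whose window holds 1 GC box, 11 bases before it, and no match to TGTTCT. In the printed windows CAGAC, a core read by SMAD proteins, occurred once in Mfap2, at 2 places in Fbln1 and not in Fbln2. It was in 42.2% of all windows. TATAAA, the TATA box, was in none of the 3 printed windows and in 12.4% of all. The motifs were searched on both strands, and these matches describe letters, not occupied sites.

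Late in restriction, the elastic fibre genes did not move as a block: Lox rose 3.83-fold, Mfap2 and Eln rose by smaller amounts, Mfap5 fell, and the fibulins and Loxl1 did not pass the test. The mean of CR 24, 48, 72 and 96 h was set against fed 0 h, the fed group taken a whole number of days before each of them. Called means a Benjamini-Hochberg adjusted p under 0.05 in limma's moderated test over all 7440 probe sets. By this rule 5 of the 12 probe sets were called, 4 higher and 1 lower, against 18.1% of all probe sets tested. The median size of the change, regardless of sign, was 0.46 on the log2 scale for the 12 probe sets and 0.28 for all tested.

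**Figure D1:**
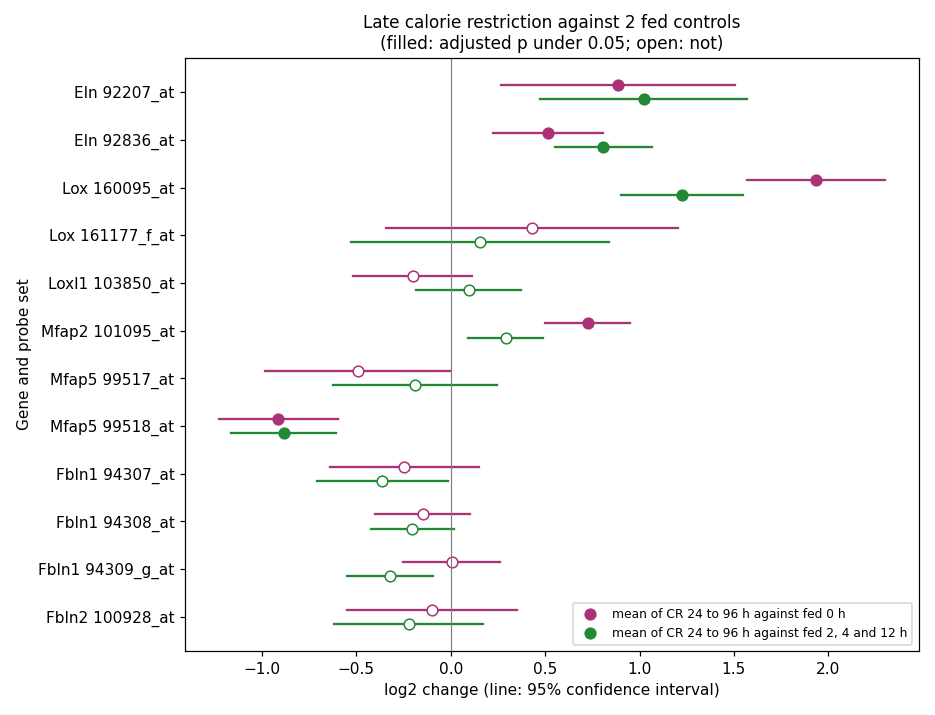
Log2 change of each of the 12 elastic fibre probe sets (vertical axis) in the mean of CR 24 to 96 h, against fed 0 h (purple) and against fed 2, 4 and 12 h (green). Points are estimates, lines 95% confidence intervals, and filled points passed the adjusted threshold of 0.05; Lox 160095_at lies farthest to the right at 1.94 and 1.22, and Mfap5 99518_at farthest to the left at -0.92 and -0.89.

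Lox, lysyl oxidase, starts the cross-linking of elastin and of collagen. Probe set 160095_at read 295, 345, 260.1 and 432 on the fed 0 h arrays 1a, 1b, 2a and 2b. In the other fed lungs it read 816 and 735 at 2 h, 648 and 478 at 4 h, and 427 and 297 at 12 h. Under early CR it read 632 and 565 at 2 h, 722 and 736 at 4 h, and 764 and 574 at 12 h.

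From 24 h of CR on, the Lox signal was 1039 and 919 at 24 h, 1443 and 1399 at 48 h, 995 and 1472 at 72 h, and 1120 and 1891 at 96 h. All 8 late CR arrays, 919 to 1891, lay above all 10 fed arrays, 260.1 to 816, and above all 6 early CR arrays, 565 to 764. The level was 333 ± 74.7 in fed 0 h (n = 4) and 1285 ± 327 in late CR (n = 8), a rise of 3.83-fold (2.97 to 4.93; limma, adjusted p = 7.36e-07). Against fed 2, 4 and 12 h, at 567 ± 199 (n = 6), the rise was 2.34-fold (limma, adjusted p = 3.76e-05). By the labelled hours, this other fed control is not matched to late CR in time of day. Diet and hour therefore cannot be told apart in it, for Lox or for any other gene. With letters averaged and times taken as 1 group, the first Lox call remained (limma, adjusted p = 0.00816) and the second was lost (0.0536). Each late time passed on its own, with log2 changes of 1.58, 2.12, 1.89 and 2.15 at 24, 48, 72 and 96 h.

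The second Lox probe set, 161177_f_at, was dim and did not follow the first. It read 47.5 to 220.2 in fed 0 h and 47.1 to 329 in late CR, and it was under the floor on 5 of the 24 arrays. It reached the array median on only 2 arrays, the least the filter allows: CR 24 h 1a at 325.9 and CR 48 h 1a at 329.3. Through these late CR arrays alone it entered the tests and every share of the members tested. The filter is thus not independent of the late comparison for this probe set. Its log2 change of 0.43 (-0.35 to 1.20) did not pass (limma, adjusted p = 0.428), and that interval lies wholly below the interval of the bright probe set, 1.57 to 2.30. The probe sets of Lox thus disagree in size in the late mean, and at some single times also in direction. At CR 72 h 161177_f_at changed by -0.31 from fed 0 h, where 160095_at changed by 1.89. Against fed of the same hour at 2, 4 and 12 h it changed by 0.41, -0.67 and -0.11, and 160095_at by -0.37, 0.39 and 0.90. At 24, 48 and 96 h both were higher than fed 0 h. The suffix f marks a probe set that may bind several related transcripts, so what it reports is not known from its symbol alone.

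**Figure D2:**
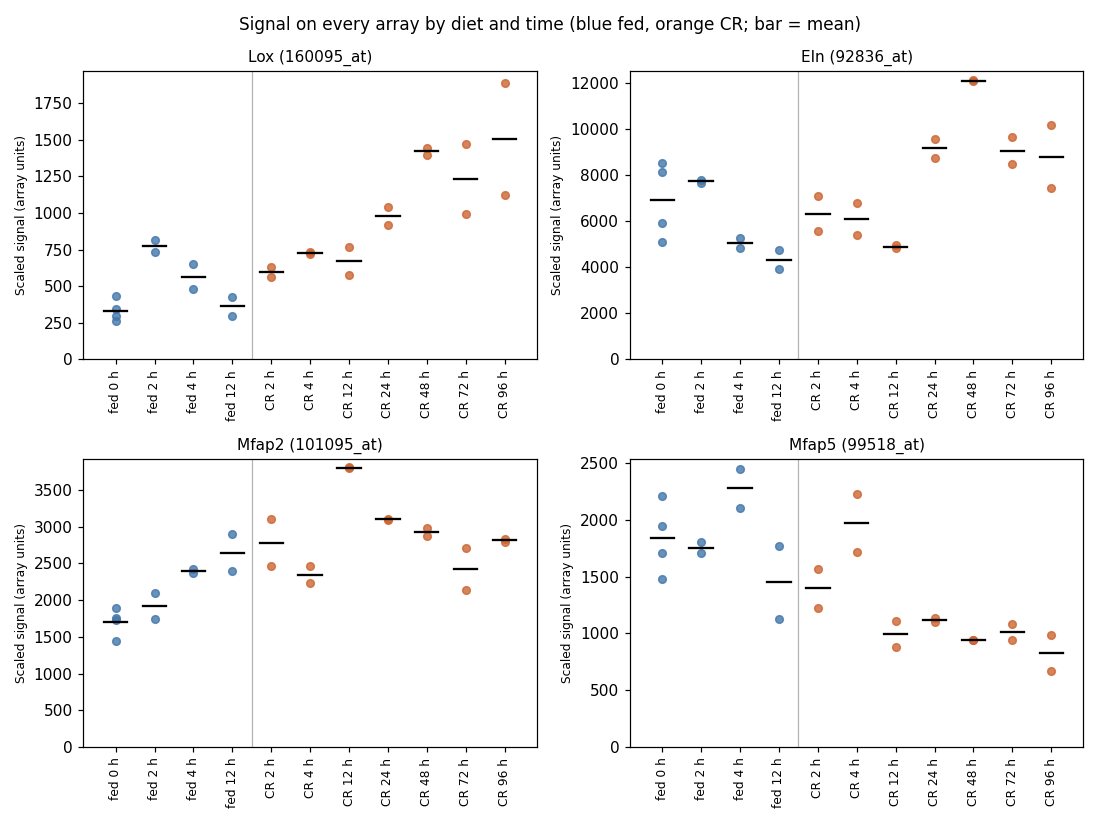
Scaled signal (vertical axis, from 0) on every array for Lox 160095_at, Eln 92836_at, Mfap2 101095_at and Mfap5 99518_at in the 11 groups (horizontal axis); dots are arrays, blue fed and orange CR, and bars are group means. The 8 Lox arrays of CR 24 to 96 h stand above every other array, while Eln, Mfap2 and Mfap5 overlap with some fed arrays.

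Loxl1, a lysyl oxidase that binds elastin itself, was not called in either late comparison. It read 324 to 497 in fed 0 h, 244 to 345 in fed 2, 4 and 12 h, and 237 to 425 in late CR. Its late log2 change was -0.20 (-0.52 to 0.11; limma, adjusted p = 0.356) against fed 0 h and 0.10 (-0.18 to 0.37; adjusted p = 0.731) against the other fed groups. Its lowest group was CR 96 h, at 258 and 237, with a log2 change of -0.63 that did not pass (limma, adjusted p = 0.0804).

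Eln encodes tropoelastin, the rubber-like core of the fibre. Its bright probe set, 92836_at, read 5911 and 5081 on fed 0 h 1a and 1b but 8544 and 8119 on 2a and 2b. The other fed lungs read 7666 and 7793 at 2 h, 5274 and 4840 at 4 h, and 4734 and 3905 at 12 h. Early CR lungs read 5565 and 7082 at 2 h, 6781 and 5402 at 4 h, and 4821 and 4972 at 12 h.

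In late CR Eln read 8761 and 9553 at 24 h, 12087 and 12123 at 48 h, 8491 and 9638 at 72 h, and 7423 and 10179 at 96 h. The highest readings of the series were thus the 2 arrays of CR 48 h, and 2 late arrays, 72 h 1a and 96 h 1a, lay within the range of the fed arrays, which reached 8544. From 6914 ± 1681 in fed 0 h (n = 4) to 9782 ± 1660 in late CR (n = 8), Eln rose 1.43-fold (1.17 to 1.75; limma, adjusted p = 0.0164). From 5702 ± 1632 in fed 2, 4 and 12 h (n = 6), which are not matched in time of day, it rose 1.75-fold (limma, adjusted p = 0.000305). The 12 h groups were the lowest in both diets, at means of 4320 in fed 12 h and 4896 in CR 12 h. Of the single times, CR 48 h passed, with a log2 change of 0.84 (limma, adjusted p = 0.0186). The fed 0 h call was lost without array 1a (adjusted p = 0.0716) or 1b (0.0931), and that at 48 h without either of its own arrays (adjusted p = 0.145 without 1a and 0.120 without 1b). With letters averaged and times taken as 1 group, both late Eln 92836_at calls were lost (limma, adjusted p = 0.273 and 0.181).

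The dim Eln probe set, 92207_at, read 160.4 to 447 in fed 0 h, 80.5 to 360 in fed 2, 4 and 12 h, and 239 to 675 in late CR. It rose 1.85-fold against fed 0 h (limma, adjusted p = 0.0446) and 2.03-fold against fed 2, 4 and 12 h (adjusted p = 0.0236). These calls were lost when single arrays were left out, in 14 of 24 cases against fed 0 h (adjusted p up to 0.135) and in 6 of 24 against the other fed groups (up to 0.0794). Both Eln probe sets thus moved the same way, and the groups overlapped in both.

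Mfap2, a small glycoprotein of the microfibril scaffold, had 1 probe set, 101095_at. It read 1757, 1887, 1438 and 1727 in fed 0 h, the lowest group. Later in the fed day it read 2091 and 1738 at 2 h, 2418 and 2369 at 4 h, and 2901 and 2392 at 12 h. Under CR it read 2460 and 3106 at 2 h, 2230 and 2460 at 4 h, and 3798 and 3811 at 12 h, the highest group.

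In late CR Mfap2 read 3101 and 3098 at 24 h, 2986 and 2878 at 48 h, 2144 and 2704 at 72 h, and 2799 and 2837 at 96 h. All 8 late arrays lay above the 4 of fed 0 h and overlapped with the other fed arrays. The rise from 1702 ± 189 (n = 4) to 2818 ± 307 (n = 8) was 1.65-fold (1.41 to 1.93; limma, adjusted p = 0.000208). Against fed 2, 4 and 12 h, at 2318 ± 386 (n = 6), it was 1.22-fold and did not pass (limma, adjusted p = 0.078). At single times it passed at 24, 48 and 96 h, with log2 changes of 0.87, 0.79 and 0.73, and not at 72 h, where the change was 0.51 (limma, adjusted p = 0.0559). The single-time calls were lost without CR 24 h 1a (limma, adjusted p = 0.0695), CR 48 h 1a (0.0802) or 1b (0.0520), and CR 96 h 1b (0.118). With letters averaged and times taken as 1 group, which treats a and b as repeats, the late Mfap2 call against fed 0 h was lost (limma, adjusted p = 0.128).

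Mfap5, the other microfibril-associated glycoprotein, went down by its bright probe set only. Its bright probe set, 99518_at, read 2213, 1945, 1477 and 1710.1 in fed 0 h, 1707 and 1805 in fed 2 h, 2451 and 2103 in fed 4 h, and 1129 and 1773 in fed 12 h. Under CR it read 1224 and 1568 at 2 h, 1721 and 2229.9 at 4 h, and 881 and 1113 at 12 h. In late CR it read 1098 and 1133 at 24 h, 938 and 946 at 48 h, 1079 and 939 at 72 h, and 988 and 669 at 96 h.

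The late Mfap5 arrays, 669 to 1133, overlapped with the fed arrays, 1129 to 2451, by 1 array on each side, CR 24 h 1b and fed 12 h 1a. The level was 1836 ± 315 in fed 0 h (n = 4) and 974 ± 145 in late CR (n = 8), lower by 1.89-fold (1.52 to 2.35; limma, adjusted p = 0.000579). Against fed 2, 4 and 12 h, at 1828 ± 441 (n = 6), it was lower by 1.85-fold (limma, adjusted p = 0.000278). The falls at 48, 72 and 96 h passed, with log2 changes of -0.95, -0.85 and -1.16; that at 24 h, -0.70, did not (limma, adjusted p = 0.0805). Without one of its 2 arrays, the fall at 48 h no longer passed (limma, adjusted p = 0.135 without 1a and 0.102 without 1b). Nor did that at 72 h (0.115 and 0.302, and 0.0584 or 0.0535 without fed 0 h 1a or 1b) or that at 96 h without 1b (0.162). With letters averaged and times taken as 1 group, both late Mfap5 calls were lost (limma, adjusted p = 0.128 against fed 0 h and 0.158 against the other fed groups). The dim probe set 99517_at, at 142.9 to 538 over all arrays, was lower by 1.41-fold in the late mean without passing (limma, adjusted p = 0.145). Against fed 2, 4 and 12 h its log2 change was -0.19 (limma, adjusted p = 0.646). It was higher than fed 0 h at CR 24 h, by 0.16, than fed 12 h at CR 12 h, by 0.67, and than fed 4 h at CR 4 h, by 0.48. There 99518_at changed by -0.70, -0.51 and -0.21, so the probe sets of Mfap5 differ in direction at 4, 12 and 24 h. At 48, 72 and 96 h both were lower than fed 0 h.

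The fibulins bridge elastin, microfibrils and the basement membrane, and none was called. Fbln1 94309_g_at, the brightest of 3, read 1478 to 2296 in fed 0 h, 1869 to 2719 in fed 2, 4 and 12 h, 2132 to 3209 in early CR, and 1540 to 2162 in late CR. Its highest group was CR 12 h, at 3209 and 2759. The late log2 changes against fed 0 h were 0.0037 for 94309_g_at (-0.25 to 0.26), -0.15 for 94308_at (-0.40 to 0.10) and -0.25 for 94307_at (-0.64 to 0.15).

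Against fed 2, 4 and 12 h, the 3 Fbln1 probe sets were lower, by log2 changes of -0.32, -0.20 and -0.36 in the same order, and none passed (limma, adjusted p = 0.0853, 0.280 and 0.215). At CR 96 h, 94307_at read 343 and 506, its lowest group, with a log2 change from fed 0 h of -0.85 (limma, adjusted p = 0.0632). Fbln2 100928_at read 399 and 323 on fed 0 h 1a and 1b, 658 and 749.6 on 2a and 2b, and 340 to 548 in late CR (340.0 being CR 96 h 1a). Its late log2 change was -0.10 (-0.55 to 0.35; limma, adjusted p = 0.761), an interval that still allows a change of 1.46-fold down.

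Ordered by group mean, neighbouring groups mostly overlapped. Lox ran from fed 0 h and fed 12 h, through fed 4 h, CR 2, 12 and 4 h and fed 2 h, to CR 24, 72, 48 and 96 h; its arrays were separate between fed 12 h and fed 4 h and between fed 2 h and CR 24 h, and overlapped between all other neighbours. Eln 92836_at ran from fed 12 h, CR 12 h and fed 4 h through CR 4 and 2 h, fed 0 h and fed 2 h to CR 96, 72, 24 and 48 h, with CR 48 h apart from CR 24 h. Mfap2 began with fed 0 h and fed 2 h, which overlapped, and ended with CR 96, 48, 24 and 12 h, each apart from the next. Mfap5 99518_at began with CR 96, 48, 12 and 72 h, which overlapped, and ended with fed 2 h, fed 0 h, CR 4 h and fed 4 h, which overlapped.

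**Figure D3:**
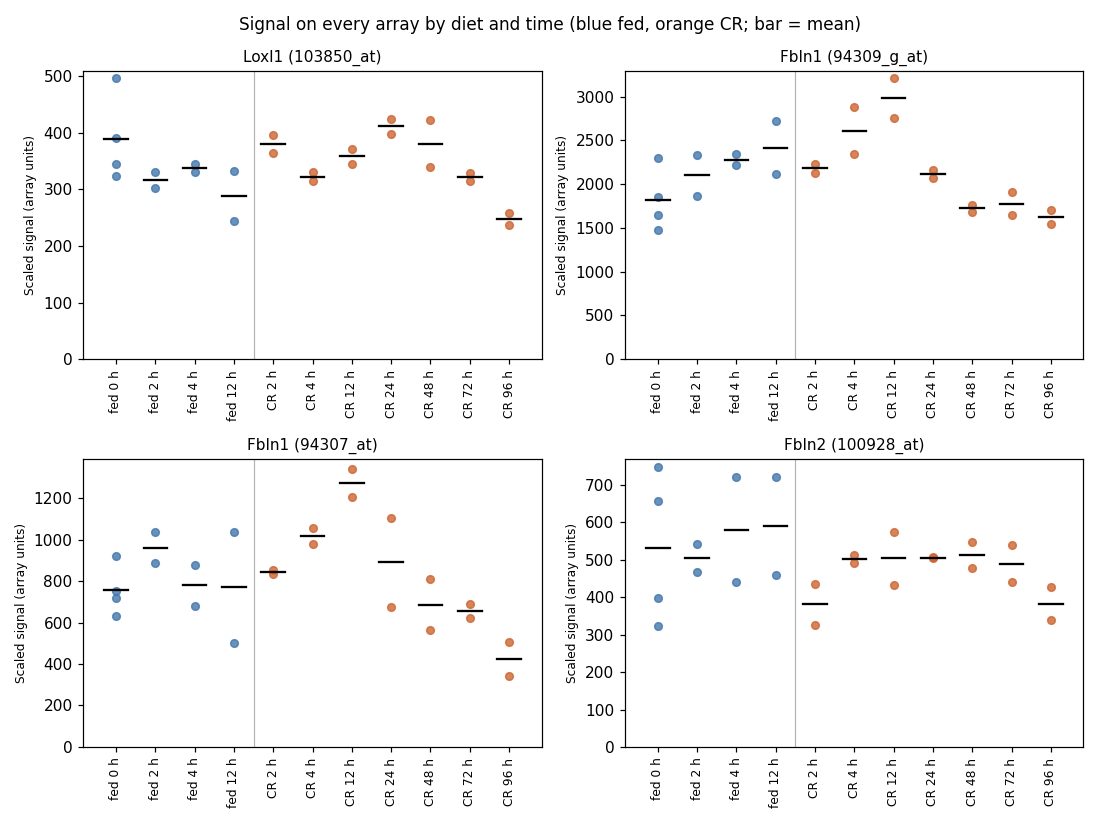
Scaled signal (vertical axis, from 0) on every array for Loxl1 103850_at, Fbln1 94309_g_at, Fbln1 94307_at and Fbln2 100928_at in the 11 groups; dots are arrays, blue fed and orange CR, and bars are group means. Late CR arrays overlap with fed 0 h arrays in each panel, and both Fbln1 probe sets are highest at CR 12 h.

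In the first hours no member passed. The fed and CR arrays of 2 h differed in their highest signal, as given below. Early CR, the mean of the differences from the fed group of the same hour at 2, 4 and 12 h, called 0 of the 12 probe sets (0.0269% of all) in limma, with 2 at an unadjusted p under 0.05, against 3.28% of all: Mfap2, with a log2 change of 0.35, and Mfap5 99518_at, with -0.36. Single early times called 0 members at 2 h (0% of all), 0 at 4 h (0%) and 0 at 12 h (0.148%). At an unadjusted p under 0.05 the counts were 1 (6.34% of all), 0 (1.75%) and 4 (5.5%). The 4 at 12 h were Lox at 0.90 (0.30 to 1.49), Fbln1 94307_at at 0.81, Mfap2 at 0.53 and Mfap5 99518_at at -0.51, on the log2 scale.

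At the later times, limma called 2 members at 24 h (2.82% of all), 4 at 48 h (5.44%), 2 at 72 h (5.82%) and 3 at 96 h (6.49%). Whether the 4 late times differ among themselves was tested with a moderated F test: 0 of the 12 members passed (0.578% of all; 2 at an unadjusted p under 0.05, against 10.3% of all), and for Lox the adjusted p was 0.750. The same test between the early effects called 0 members (0% of all; 2 at an unadjusted p under 0.05, against 4.81%).

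**Figure D4:**
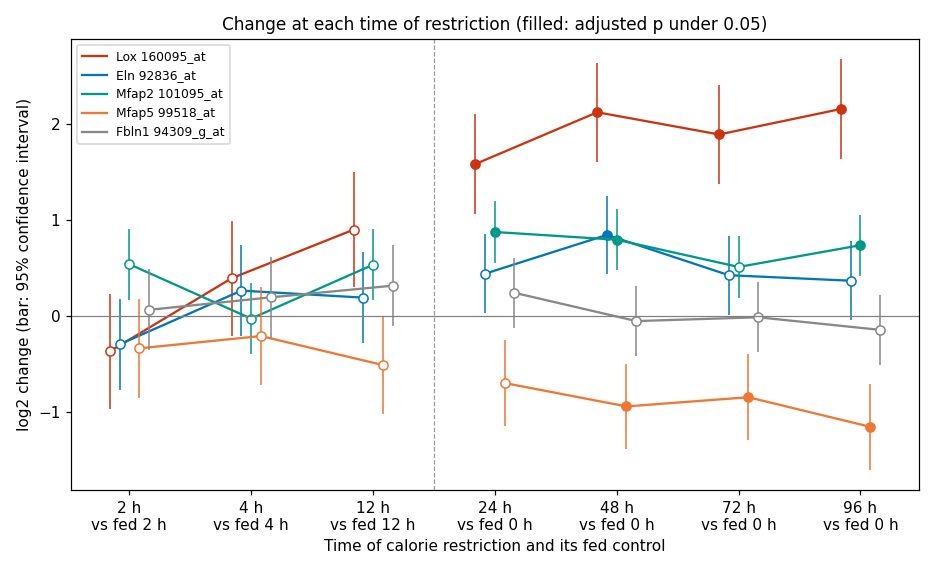
Log2 change (vertical axis) at each time of CR for 5 probe sets, against the fed group of the same hour up to 12 h and against fed 0 h from 24 h on, as the dashed line divides; bars are 95% confidence intervals, lines join times with the same kind of control, and filled points passed. Lox passes at all 4 late times, from 1.58 to 2.15, and no point passes before 24 h.

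The fed groups were also compared with each other. Fed 2, 4 and 12 h against fed 0 h called 0 members (1.85% of all); 3 of 12 had an unadjusted p under 0.05, against 17.6% of all. Lox differed by a log2 change of 0.71 (0.33 to 1.10; limma, adjusted p = 0.0528) and Mfap2 by 0.44 (0.20 to 0.67; adjusted p = 0.0536). Fed 2, 4 and 12 h as the control gives 4 late calls (6.34% of all): Lox, both Eln probe sets and Mfap5. Both late comparisons use the same CR arrays, and only fed 0 h is matched to them in time of day by the labelled hours.

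The 4 fed 0 h arrays fall into numbers 1 and 2, which differed in 39.9% of all probe sets and in 2 members. Eln 92836_at was lower in number 1 than in number 2 by a log2 difference of -0.60 (limma, adjusted p = 0.00577), and Fbln2 by -0.97 (adjusted p = 0.00654). The highest signal of an array was 86942 and 93445 in number 1 but 53258 and 54315 in number 2. CR 24 and 48 h shared the high range and CR 72 and 96 h the low one. At 2 h the diets differed in range, CR at 76226.5 to 78840.8 and fed at 40914 to 47510. Diet and range thus cannot be told apart at 2 h, which enters the early mean. With range as a block, the early mean called 0 members and 452 of all, instead of 0 and 2. Over the settings, Fbln2 at 2 h changed by log2 -0.47 to 0.56 without passing. Lox, Mfap2 and Mfap5 passed against each number; Eln did not pass against number 2.

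With number 1 as the control 6 members were called (49.4% of all), and with number 2 alone 3 (7.76%), at log2 changes of 1.90 for Lox, 0.83 for Mfap2 and -0.72 for Mfap5 99518_at. Eln 92836_at then changed by 0.21 (limma, adjusted p = 0.339). Among high-range arrays, 4 were called for CR 24 and 48 h against number 1 (46% of all): Lox 1.89, Eln 92836_at 0.94, Mfap2 0.73 and Mfap5 99518_at -1.02. Among low-range arrays, 3 were called for CR 72 and 96 h against number 2 (10.7% of all): Lox 1.98, Mfap2 0.72 and Mfap5 99518_at -0.81, with Eln 92836_at at 0.09.

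The ratio of 3' to 5' Gapdh probe sets, a sign of RNA quality, was 1.76 to 2.02 in fed 0 h and 1.95 to 2.15 at CR 48 h, against 1.21 to 1.49 in the other late groups and 1.01 to 1.66 in fed 2, 4 and 12 h. Without CR 48 h, the late mean called 3 members against fed 0 h (15.9% of all) and 3 against fed 2, 4 and 12 h (4.46%). Lox kept log2 changes of 1.87 and 1.16, and Mfap5 99518_at of -0.90 and -0.88. Eln 92836_at no longer passed against fed 0 h, at 0.41 (limma, adjusted p = 0.0634), but did against fed 2, 4 and 12 h, at 0.70 (adjusted p = 0.0029). The same ratio for actin was 2.69 to 3.81 at CR 48 h, above the 1.87 to 2.31 of fed 0 h. Once CR 48 h is left out, the Gapdh ratios of late CR, 1.21 to 1.49, do not overlap with the 1.76 to 2.02 of fed 0 h. They do overlap with the 1.01 to 1.66 of fed 2, 4 and 12 h. The part of RNA quality in the values at CR 48 h, and in the late changes against either fed control, was not tested.

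**Figure D5:**
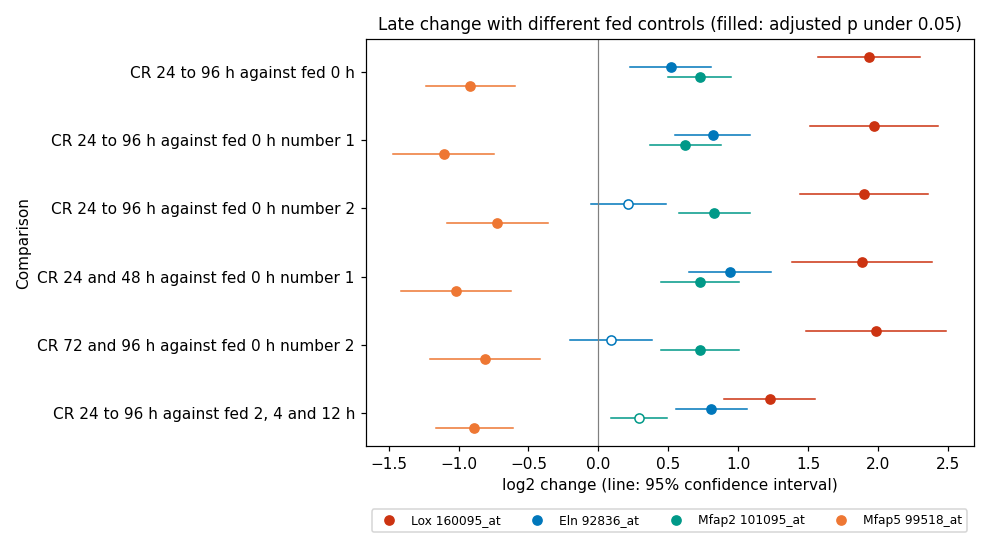
Log2 change (horizontal axis) of Lox 160095_at, Eln 92836_at, Mfap2 101095_at and Mfap5 99518_at in late CR with 6 choices of times and fed control (vertical axis); lines are 95% confidence intervals and filled points passed. Lox stays between 1.22 and 1.98 and Mfap5 below 0 in all 6, whereas Eln lies at 0.09 and 0.21 against fed 0 h number 2.

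Of 23 other genes of fibre assembly listed, 10 had a probe set and 8 were tested. In the late mean against fed 0 h, which called 18.1% of all probe sets, 1 of these rose and 0 fell. That was Ltbp2, a latent TGF-beta binding protein of the microfibril, up 1.55-fold (limma, adjusted p = 0.0273). The median log2 change of the 8 was 0.46, beside -0.00495 for all tested. The 95% intervals of Ltbp1, Ltbp4 and Bgn also lay above 0 without an adjusted p under 0.05. Against fed 2, 4 and 12 h, which called 6.34% of all, the median was 0.11, beside 0.02, and again Ltbp2 alone rose. The summed signal of the 10 genes was 24717 to 25866 in fed 0 h number 1, 35303 to 38575 in number 2 and 29304 to 40809 in late CR, so late CR lay above number 1 and overlapped with number 2.

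Among the listed elastin-degrading enzymes and protease inhibitors, 2 of 16 tested rose and 1 fell in the late mean (18.1% of all called). Mmp12, macrophage elastase, fell 1.77-fold (limma, adjusted p = 0.0140), from 555 to 322 signal units. Timp3, an inhibitor of matrix metalloproteases, rose 1.65-fold (limma, adjusted p = 0.00118), and Serping1, a serine protease inhibitor, rose 1.31-fold (adjusted p = 0.0119). Among fed lungs, Serping1 was also higher at 2, 4 and 12 h than at 0 h, by 1.47-fold (limma, adjusted p = 0.00958). Against fed 2, 4 and 12 h, 0 rose and 2 fell (6.34% of all called). These were Mmp12, by 1.94-fold, and Ctss, a cysteine protease that cuts elastin, by 1.77-fold (limma, adjusted p = 0.0126).

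Of the growth factor genes that regulate elastin, 7 of 14 tested rose and 1 fell against fed 0 h (18.1% of all called). The summed signal of all 20 with a probe set was 17603.5 to 18877 in fed 0 h number 1, 23923 to 27388 in number 2 and 26030 to 33343.5 in late CR. Ccn2, a matricellular protein induced by TGF-beta, rose 2.31-fold (limma, adjusted p = 9.73e-06), and Pdgfra, the PDGF receptor of alveolar fibroblasts, rose 1.80-fold (adjusted p = 0.00698). Smad4, the shared partner of SMAD signalling, rose 1.69-fold (limma, adjusted p = 0.0127). Of the TGF-beta ligands, Tgfb3 fell 1.37-fold (limma, adjusted p = 0.0153), Tgfb1 rose 2.28-fold (adjusted p = 0.0318) and Tgfb2 did not pass. Among fed lungs, those at 2, 4 and 12 h also had more Ccn2 and Tgfb1 than those at 0 h, by 1.52-fold and 3.01-fold (limma, adjusted p = 0.0362 and 0.0399). Late CR against fed 2, 4 and 12 h called 1 of the 14 higher and 0 lower (6.34% of all). The 1 was Ccn2, by 1.53-fold (limma, adjusted p = 0.00372).

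Markers of the cells that make elastic fibres did not rise together. Of 9 fibroblast markers, 1 rose (Pdgfra) and 1 fell in the late mean against fed 0 h (18.1% of all called). The marker that fell was Col3a1, the fibrillar collagen III chain, by 1.91-fold (limma, adjusted p = 2.21e-06). Against fed 2, 4 and 12 h, 0 rose and 4 fell (Col3a1, Col1a2, Cd34 and Thy1), beside 6.34% of all called. Dpt, Tcf21, Lum and Col1a1 passed in neither. Their summed signal ran from 14893 to 19436 in fed 0 h, 16477 to 23327 in fed 2, 4 and 12 h and 13556 to 19389 in late CR. The late range overlapped with both fed ranges.

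Beside the lists below, 18.1% of all were called against fed 0 h and 6.34% against fed 2, 4 and 12 h. Of 8 smooth muscle markers, 2 fell against fed 0 h (Tagln by 1.66-fold and Cnn1 by 1.37-fold). The sum of the 8 ran from 15686 to 22885 in fed 0 h and 11843 to 18798 in late CR. In fed 2, 4 and 12 h it ran from 11869 to 13655. With fed 2, 4 and 12 h as the control, 0 rose and 0 fell, with a median log2 change of 0.25, and both Tagln and Cnn1 were lower in those fed lungs than at 0 h, by 1.51-fold and 1.81-fold (limma, adjusted p = 0.0362 and 0.00626). Of 7 tested heart muscle markers, 4 fell (Myl7, Myl4, Tnni3 and Actc1), with sums of all 8 at 26031 to 33208 in fed 0 h, 15648 to 21614 in fed 2, 4 and 12 h and 12839 to 25346 in late CR. Of 4 tested mesothelial markers 1 fell (Upk3b); the log2 changes of Msln, Krt8 and Krt19 were 0.61, 0.24 and 0.16 and did not pass. The other fed control gave 0 lower and 1 higher, Krt8 by 1.41-fold (limma, adjusted p = 0.0170). Of 4 fat cell markers 1 fell (Adipoq, by 1.88-fold); the fat sums were 2834 to 4982 in fed 0 h and 1922 to 2786 in late CR. No fat cell marker of the 4 was called against fed 2, 4 and 12 h. The part of these tissues in the fall of Mfap5 was not tested.

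Of 7 endothelial markers 2 rose (Tek and Tie1), and of 4 tested lung epithelium markers 1 rose (Sftpb), beside 18.1% of all called. The surfactant and airway genes Sftpc and Scgb1a1 did not pass. Their means were 69960 and 57798 in fed 0 h and 57261 and 48504 in late CR. Of 6 cartilage markers 3 had a probe set and 0 passed the filter; Matn1 was at the floor on 23 of 24 arrays and Acan on 16. No listed marker with a probe set for fibroblasts, smooth muscle, heart, fat or mesothelium was at the floor on every array.

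Genes whose group means ran most like each member's brightest probe set were found by Pearson's r over the 11 groups, given as a description since all points share the same arrays. For Mfap5 they were Col3a1 (r = 0.975) and Gbp3 (0.969), and for Lox they were Lgals4 (0.946) and Tcf25 (0.939). Eln ran most like Slc11a2 (0.943) and Pabpn1 (0.936), Mfap2 like Foxp1 (0.913) and Rras (0.913), and Loxl1 like Myo6 (0.928) and Fgfr1op2 (0.897). Fbln1 ran most like Sgce (0.929) and Ak3 (0.922), and Fbln2 like Mpdz (0.853) and Matn2 (0.852). No member was among the closest genes of another.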

How the data were processed

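The authors deposited linear intensity values per probe set for 24 MG-U74Av2 arrays; which software made them is not stated in the labels used here. One array of another platform (MAS5, according to the submitters' processing notes) has a title and description in conflict and was not used. Here, scaling set every array to the median of all 24 medians, signals below the 25th percentile (80.4 units) were set to it as a floor before log2, which compresses changes of dim probe sets. The 66 control probe sets were left out. A limma 3.58.1 model (R 4.3.3) with 1 mean per group and 13 residual degrees of freedom used eBayes with an intensity trend; tests were two-sided, with Benjamini-Hochberg adjustment over 7440 probe sets. The code was tested on simulated data. With mostly 2 arrays a group, their number limits the precision.

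Symbols came from the platform annotation, and all 13 member probe sets matched a RefSeq symbol. All members are named, with up to 4 called genes by smallest adjusted p from each of 11 other lists in a main comparison, the defining markers, and the 2 genes most like each member. Each gene of the other lists was read by its brightest probe set only, so whether its other probe sets move alike was not examined. The members and lists were chosen with earlier results of these data known. Same-letter deviations correlated at r = -0.19 to 0.12, so letters were not treated as pairs. Alternatives covered scaling, floor, filter, array weights, variance trend, blocks, averaged letters, other fed controls and each array left out.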

Additional observations from a re-analysis of the deposited data

How the results depend on the processing

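No called direction reversed under any setting tried. Lox 160095_at passed in the late mean against fed 0 h under all 16 alternatives (log2 1.87 to 1.98) and with each of 24 arrays left out (1.83 to 2.07). The 5 late calls became 3 with estimated array weights, with fed 0 h number 2 alone, with CR 72 and 96 h against number 2, with only fed 0 h and late CR arrays fitted, and without CR 48 h (chosen after seeing the data); in each both Eln probe sets were lost, and Lox, Mfap2 and Mfap5 99518_at passed. With letters averaged and times taken as 1 group, 1 late call was left (Lox), and 0 against fed 2, 4 and 12 h instead of 4 (Lox adjusted p = 0.0536). Leaving out 1 array gave 3 to 6 late calls, 3 without fed 0 h 1a or 1b, and 3 to 5 against fed 2, 4 and 12 h. Fed 2, 4 and 12 h against fed 0 h, 0 calls, gave 2 without scaling, 1 without the filter, 2 with quantile normalization, 3 with signal range as a block, and 0 to 3 with 1 array left out (3 without fed 0 h 2b, 2 without fed 12 h 1b, 1 without either CR 96 h array). The F test of late times, 0 calls, gave 2 with signal range as a block. With the array letter as a replicate block the late counts stayed at 5 and 4. The causes were not tested. Eln 92207_at passed under 8 of 16 alternatives and Eln 92836_at under 10.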
